A study of Mus musculus with 8 samples.

Results

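The 78 genes described here carry symbols of mitochondrial ribosomal proteins, and all but Mrps36 encode such proteins. They are every listed gene whose symbol begins with Mrpl or Mrps followed by a number, pseudogenes left out, among 17457 genes listed in the kidney cortex of mice on a high or a normal phosphate (Pi) diet. All 78 reached at least 0.5 FPKM in at least 4 of 8 libraries and so entered the test with 12305 other genes. FPKM are fragments scaled to transcript length and to the mapped fragments of the library. The high Pi group was 4 C57BL/6J mice fed 1.2% Pi for 3 days, and the normal Pi group was 4 C57BL/6J mice fed 0.6% Pi for the same 3 days. Each mouse gave 1 library of RNA. No gene was altered in either group, and the mice were age-matched young adult males. The comparison asks whether raising dietary Pi was followed by a change in the transcripts that build the mitochondrial ribosome of the kidney.

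The mitochondrial ribosome is a separate machine from the cytosolic ribosome and translates the few messages of mitochondrial DNA, all of which encode subunits of the respiratory chain and ATP synthase. Its RNAs come from mitochondrial DNA, but its proteins are encoded in the nucleus, made in the cytosol and imported. A small subunit decodes the message and a large subunit forms peptide bonds, and each holds proteins with counterparts in bacteria and proteins found only in mitochondria. The kidney cortex is rich in proximal tubule cells, which are packed with mitochondria that power transport of solutes, Pi included.

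No mitochondrial ribosomal protein gene differed between the diets by more than the spread between mice allowed the test to call. In limma's test across all genes with Benjamini-Hochberg adjustment, 0 of 78 members passed an adjusted p of 0.05, whereas 37 of 12383 genes (0.299%) did. At an unadjusted p under 0.05 the count was also 0 of 78, against a share of 9.35% of all tested genes. No member had all 4 high Pi values on the same side of all 4 normal Pi values, a pattern seen in 5.02% of all tested genes. The lowest adjusted p of any member was 0.661. The median log2 fold change (high Pi over normal Pi, on the log2(FPKM + 1) scale) was 0.001 over the members and -0.011 over all tested genes. By sign, 40 members were above 0 and 38 were below, and 71 of 78 lay within 0.1 of 0.

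The precision of these estimates was enough to bound the changes. The 95% interval of every member lay between -0.31 and 0.43 on the log2 scale, so all 78 intervals excluded a 1.5-fold change (0.585) in either direction, as did 94.4% of the intervals of all tested genes. A 1.25-fold change was excluded for 75 of 78 members (96.2%), and for 61.0% of all tested genes. The share was close to that of the members in cytosolic ribosomal protein genes (92.5%) and nuclear respiratory chain genes (91.5%). Members also had a higher median level, at 47.8 FPKM against 7.88 FPKM over all tested genes. Standard errors of the members ran from 0.0563 for Mrpl38 to 0.113 for Mrps14. Within a diet, the coefficient of variation between mice had a median of 7.32% in high Pi mice and 5.5% in normal Pi mice over the members, and its extremes were 1.09% and 17.4%.

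**Figure D1:**
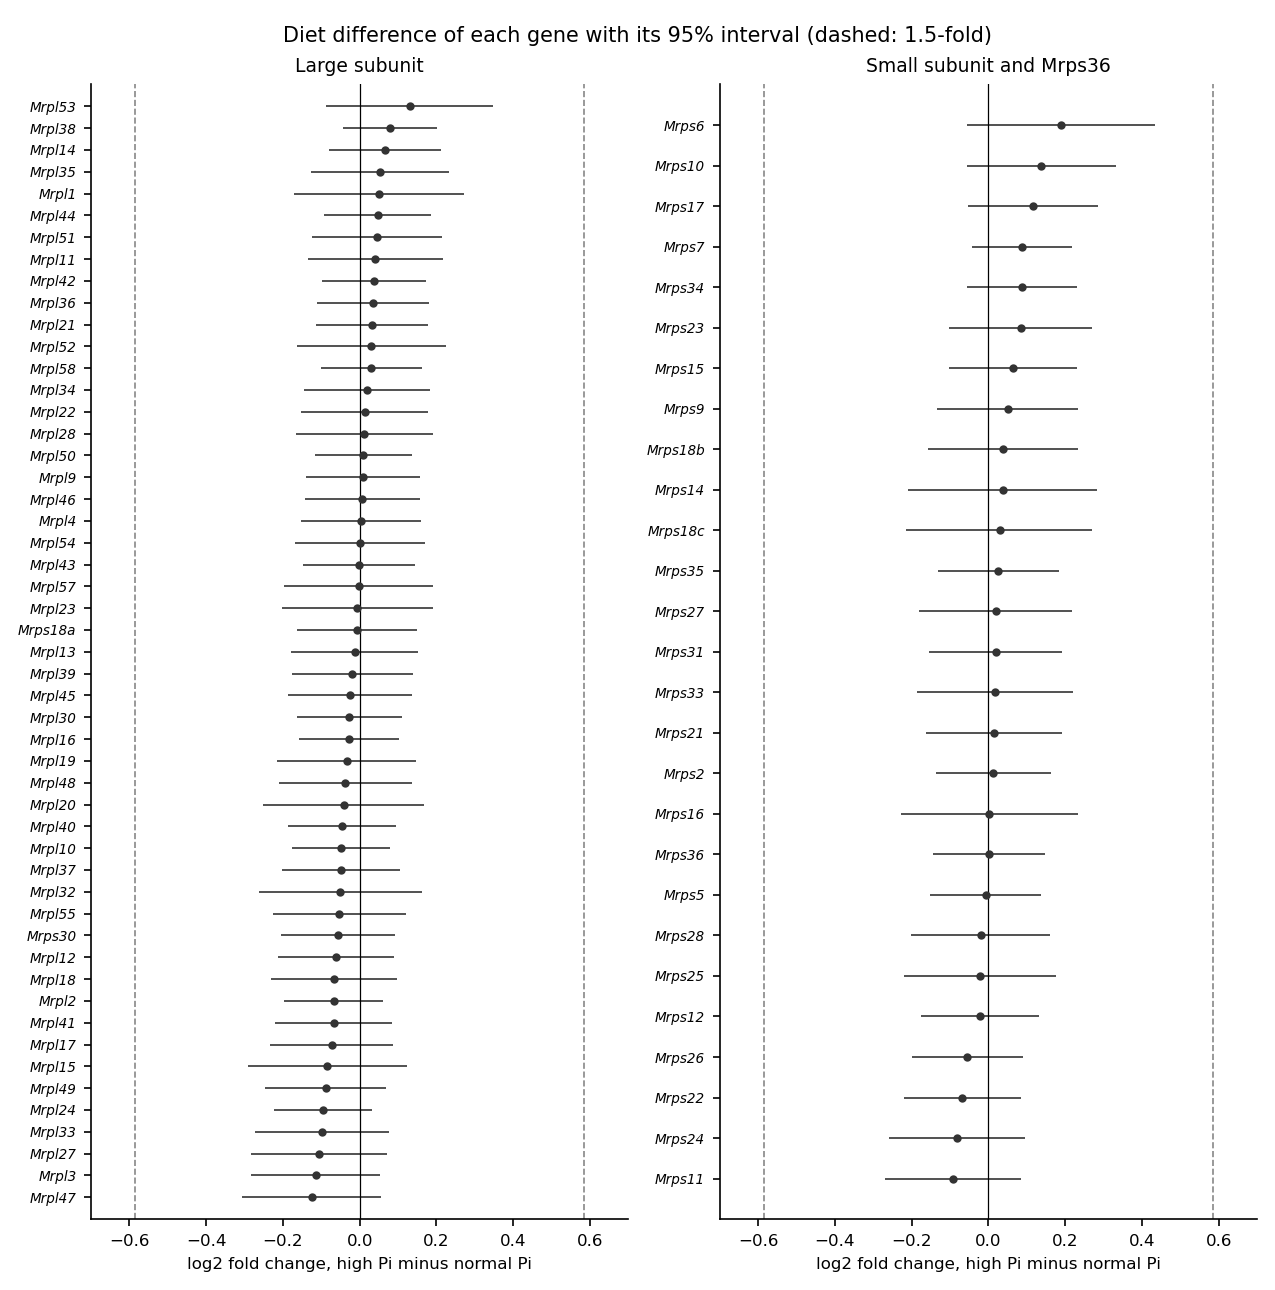
Log2 fold change (high Pi minus normal Pi, 4 mice each) of each member on the horizontal axis, with bars for the 95% interval from limma. Genes run down the page by size of the difference, large subunit on the left and small subunit with Mrps36 on the right. Every bar crosses 0 and none reaches the dashed lines at 1.5-fold (0.585 on the log2 scale).

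Levels differed far more between the genes than between the diets. The highest member exceeded the lowest 119-fold, with 12 members above 100 FPKM, 60 from 10 to 100 FPKM and 6 under 10 FPKM. The order of the members by level was nearly the same on both diets (Spearman's rho = 0.997 across 78 genes, which share libraries and are not independent replicates). Of 77 pairs of neighbours in this order, 72 overlapped in their ranges over the 8 mice. The breaks lay below Mrps21, between Mrpl52 and Mrpl58, between Mrpl11 and Mrpl15, and on either side of Mrps25 near the bottom. Longer transcripts had lower levels: rho between level and transcript length was -0.54 across members and -0.27 across 12285 tested genes with a length. Lengths were taken from GENCODE models and can differ from those behind the FPKM. For Mrps26 the length of 4278 bases exceeds its annotated gene (chr2:130563757-130565394). The same holds for Mrpl51 (3427 bases), Mrpl32 (3013 bases), Mrpl57 (2877 bases) and Mrps16 (2572 bases). These lengths were kept in rho. The 10 highest members had a median transcript length of 676 bases, and the 10 lowest had 3576 bases.

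**Figure D2:**
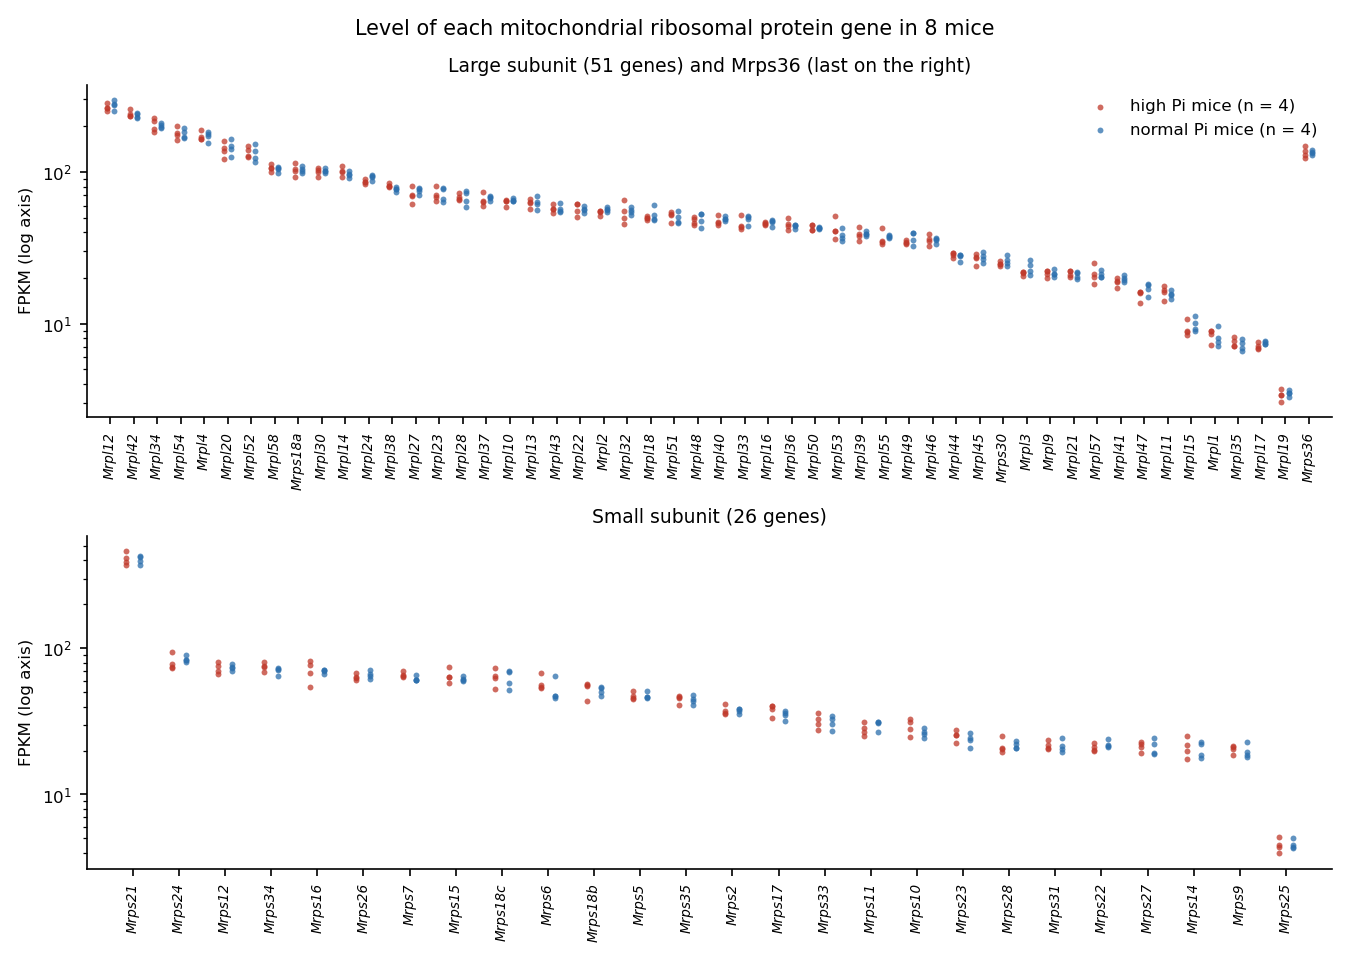
FPKM of each member in each of 8 mice on a log axis, large subunit with Mrps36 above and small subunit below, ordered by mean level, with high Pi mice drawn left of normal Pi mice. The points of the diets overlap for every gene, while levels run over a 119-fold range between Mrps21 and Mrpl19.

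At the top of the order stood Mrps21, a small subunit protein with a bacterial counterpart. Its levels were 371, 393, 465 and 417 FPKM in high Pi mice, against 431, 374, 398 and 423 FPKM in normal Pi mice. The highest value was that of a high Pi mouse and so was the lowest, and the log2 fold change was 0.015 ± 0.0808 (SE). Mrpl12, which forms the stalk of the large subunit where translation factors bind and is also known to bind the mitochondrial RNA polymerase, had 249.6, 263.5, 282 and 262 FPKM in high Pi mice, against 251, 277, 299 and 278 FPKM in normal Pi mice. The groups overlapped, with a log2 fold change of -0.062 ± 0.0696. Mrpl42, found only in mitochondria, averaged 242 ± 12.8 FPKM in high Pi mice and 236 ± 8.94 FPKM in normal Pi mice (SD, n = 4 each). Mrpl34 and Mrpl54, both of the large subunit, followed with means over all mice of 203 and 179 FPKM and log2 fold changes of 0.019 and 0.001.

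At the bottom stood Mrpl19, a large subunit protein with a bacterial counterpart. Its levels were 3.05, 3.42, 3.39 and 3.71 FPKM in high Pi mice, against 3.48, 3.29, 3.51 and 3.69 FPKM in normal Pi mice. The ranges overlapped almost entirely, and the log2 fold change was -0.034 ± 0.0831. Mrps25, a mitochondrion-specific small subunit protein, averaged 4.49 ± 0.493 FPKM in high Pi mice and 4.56 ± 0.313 FPKM in normal Pi mice (SD, n = 4 each). Mrpl17, Mrpl35 and Mrpl1, the last of which forms the mobile stalk beside the tRNA exit site, had means over all mice of 7.31, 7.39 and 8.27 FPKM and log2 fold changes of -0.073, 0.052 and 0.05.

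By subunit, the sums of FPKM were close between the diets. The 51 large subunit members, which include Mrps18a and Mrps30 despite their symbols, summed to 3351 ± 186 FPKM in high Pi mice and 3376 ± 103 FPKM in normal Pi mice (SD, n = 4 each). The 26 small subunit members summed to 1494 ± 116 FPKM in high Pi mice and 1467 ± 51.7 FPKM in normal Pi mice. The ratio of the small to the large subunit sum was 0.445 ± 0.0124 in high Pi mice and 0.435 ± 0.0175 in normal Pi mice. Median log2 fold changes were 0.019 for the small subunit, with 18 of 26 members above 0, and -0.013 for the large subunit, with 21 of 51 above 0. Within the large subunit, 11 of 31 members with bacterial counterparts and 10 of 20 mitochondrion-specific members were above 0. These counts are a description, since members share libraries, and the signs depended on scaling: with each library scaled to a common total (TPM), 19 of 78 members were above 0 and the median over members was -0.034, while that over all tested genes moved to -0.043. All members together made up 0.737 ± 0.0158% of summed FPKM in high Pi mice and 0.756 ± 0.00379% in normal Pi mice. On this share the diets did not overlap, at 0.715 to 0.75% in high Pi mice and 0.751 to 0.759% in normal Pi mice, and no test was made of it.

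Among members with higher means on high Pi, Mrps6 had the smallest p. This small subunit protein has a counterpart that pairs with another ribosomal protein in bacteria. Its levels were 56.0, 53.9, 68.2 and 54.6 FPKM in high Pi mice, against 64.6, 47.3, 46.0 and 47.0 FPKM in normal Pi mice. In each diet 1 mouse stood above the other 3, high Pi replicate 3 and normal Pi replicate 1, and normal Pi replicate 1 lay within the high Pi range. The log2 fold change was 0.19 ± 0.112 (adjusted p = 0.661). Without normal Pi replicate 1 the groups did not overlap and the adjusted p was 0.286. The Mrps6 locus overlaps Slc5a3, which encodes a myo-inositol transporter, on the same strand, so reads could be divided between them, and Slc5a3 was listed at 0.89 to 2.02 FPKM.

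Mrps10 and Mrps17, small subunit proteins with bacterial counterparts, came next. Mrps10 had 24.9, 28.2, 31.3 and 32.6 FPKM in high Pi mice, against 26.1, 26.6, 24.2 and 28.7 FPKM in normal Pi mice, so 2 high Pi mice lay above all normal Pi mice and the other 2 among them. Mrps17 had 33.4, 38.2, 40.1 and 40.6 FPKM in high Pi mice, against 36.2, 34.8, 32.0 and 37.0 FPKM in normal Pi mice. Here 3 high Pi mice lay above all normal Pi mice and high Pi replicate 1 lay among the normal Pi values. Log2 fold changes were 0.14 ± 0.089 for Mrps10 and 0.12 ± 0.0774 for Mrps17, with adjusted p of 0.694 and 0.705. Mrps7, a protein of the head of the small subunit, and the mitochondrion-specific Mrpl38 and Mrps34 had log2 fold changes of 0.088, 0.079 and 0.087 with adjusted p of 0.715, 0.729 and 0.756.

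On the other side, Mrpl24, a large subunit protein with a bacterial counterpart at the exit of the peptide tunnel, had 83.7, 85.2, 85.2 and 90.2 FPKM in high Pi mice, against 86.7, 92.3, 94.5 and 94.6 FPKM in normal Pi mice. Only the lowest normal Pi mouse and the highest high Pi mouse kept the groups from separating, and the log2 fold change was -0.095 ± 0.0585 (adjusted p = 0.68). Mrpl47, also of the large subunit, had 13.8, 16.2, 16.3 and 16.0 FPKM in high Pi mice, against 18.1, 15.1, 17.0 and 18.0 FPKM in normal Pi mice. High Pi replicate 1 was the lowest of all 8, and the log2 fold change was -0.125 ± 0.0829 (adjusted p = 0.705). Mrpl3, Mrpl27, Mrpl33 and the mitochondrion-specific Mrpl49 had log2 fold changes of -0.115, -0.105, -0.098 and -0.089, with adjusted p from 0.706 to 0.771.

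**Figure D3:**
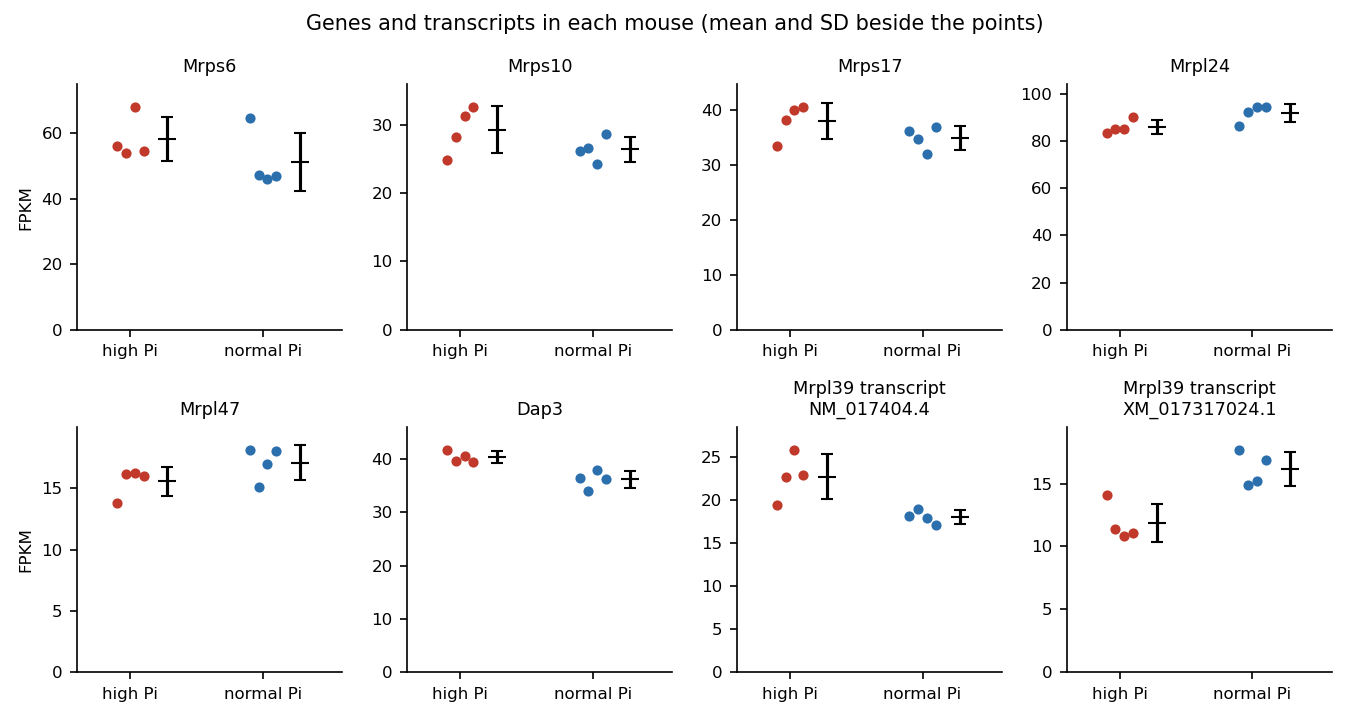
FPKM in each mouse, high Pi left of normal Pi (4 mice each), with mean and SD beside the points, for 5 of the members with the smallest p, for Dap3 and for a pair of Mrpl39 transcripts. The groups overlap in the 5 member genes and separate in Dap3 and in the Mrpl39 transcripts, none of which passed the adjusted threshold.

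The Mrps18 genes are a family in which each paralog is known to occupy its own place in the ribosome. Mrps18a, of the large subunit, was the most abundant, with 103 ± 8.79 FPKM in high Pi mice and 104 ± 4.91 FPKM in normal Pi mice (SD, n = 4 each). Mrps18c averaged 63.4 ± 8.35 FPKM in high Pi mice and 62.1 ± 8.47 FPKM in normal Pi mice. Mrps18b averaged 53.0 ± 6.39 FPKM in high Pi mice and 51.3 ± 3.13 FPKM in normal Pi mice. The ranges of Mrps18b and Mrps18c overlapped, and log2 fold changes of the 3 paralogs were -0.008, 0.038 and 0.029 in the order a, b, c. Mrps36, whose product is now known as a component of the oxoglutarate dehydrogenase complex and not of the ribosome, averaged 134 ± 10.5 FPKM in high Pi mice and 134 ± 4.12 FPKM in normal Pi mice.

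Of the ribosomal subunits that carry other symbols, Dap3 differed most. Dap3 is a GTP-binding protein of the small subunit, and its levels were 41.7, 39.5, 40.5 and 39.4 FPKM in high Pi mice, against 36.4, 34.0, 37.9 and 36.2 FPKM in normal Pi mice. All 4 high Pi mice lay above all 4 normal Pi mice. The log2 fold change was 0.15 ± 0.0603, but this failed the adjustment (unadjusted p = 0.0255, adjusted p = 0.407). The other 4 gave log2 fold changes of 0.14 for Chchd1, 0.024 for Aurkaip1, -0.005 for Ptcd3 and -0.017 for Gadd45gip1, with overlapping groups in each.

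Of the genes that serve the ribosome or its genome, in 5 further lists, 0 passed the adjusted threshold. Of 15 mitochondrial translation factors, 3 were above 0 and the median log2 fold change was -0.028. The smallest p was that of Mtrf1l, a release factor, at 2.44 ± 0.566 FPKM in high Pi mice and 2.99 ± 0.155 FPKM in normal Pi mice (SD, n = 4 each, adjusted p = 0.573). Of 24 ribosome assembly genes, 4 were above 0 and the median was -0.048. Among them Mtg2, a GTPase of large subunit assembly, had 13.4, 12.8, 13.4 and 12.8 FPKM in high Pi mice, against 13.9, 14.6, 14.1 and 14.4 FPKM in normal Pi mice. These groups did not overlap, although the log2 fold change was only -0.116 ± 0.064 (adjusted p = 0.628).

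Of 19 mitochondrial tRNA synthetases, 9 were above 0 and the median was -0.002. Ears2, which charges the glutamate tRNA, averaged 4.05 ± 0.588 FPKM in high Pi mice and 4.94 ± 0.418 FPKM in normal Pi mice, with a log2 fold change of -0.24 ± 0.101 (adjusted p = 0.466). Of 11 genes of mitochondrial DNA transcription, 4 were above 0 and the median was -0.087, with Tefm, a transcription elongation factor, at -0.141 ± 0.0784 (adjusted p = 0.63). Of 9 regulators of mitochondrial biogenesis, 1 was higher and 1 lower on high Pi at an unadjusted p under 0.05, against 9.35% of all tested genes. The first was Myc, a transcription factor known to raise ribosome production, which averaged 3.46 ± 0.794 FPKM in high Pi mice and 2.19 ± 0.275 FPKM in normal Pi mice, overlapping in high Pi replicate 2, with a log2 fold change of 0.47 ± 0.128 (adjusted p = 0.19). The other was Ppargc1a, a coactivator known to drive mitochondrial biogenesis, with 13.8, 9.16, 7.78 and 8.74 FPKM in high Pi mice, against 12.0, 13.6, 13.2 and 11.5 FPKM in normal Pi mice. High Pi replicate 1 was the highest of all 8 and the other 3 high Pi mice lay below all normal Pi mice, with a log2 fold change of -0.35 (adjusted p = 0.422).

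For scale, the same fit gave a median of 0.014 over 80 cytosolic ribosomal protein genes and 0 calls, with 0 at an unadjusted p under 0.05. Over 82 nuclear genes of the respiratory chain it gave a median of 0.00 and 0 calls. At an unadjusted p under 0.05 were 3 of the 82, against 9.35% of all tested genes. The most distant of these was Cox8b, an isoform of muscle and brown fat, listed at 0.54, 1.1, 3.47 and 3.88 FPKM in high Pi mice, against 1.38, 0.0, 0.26 and 0.0 FPKM in normal Pi mice. Its 3 highest mice were also those with the highest summed levels of 6 adipocyte markers, 180 and 308 FPKM in high Pi replicates 3 and 4 and 104 FPKM in normal Pi replicate 1, against 33.9 to 54.7 FPKM in the other mice. The part of fat in this value was not tested.

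**Figure D4:**
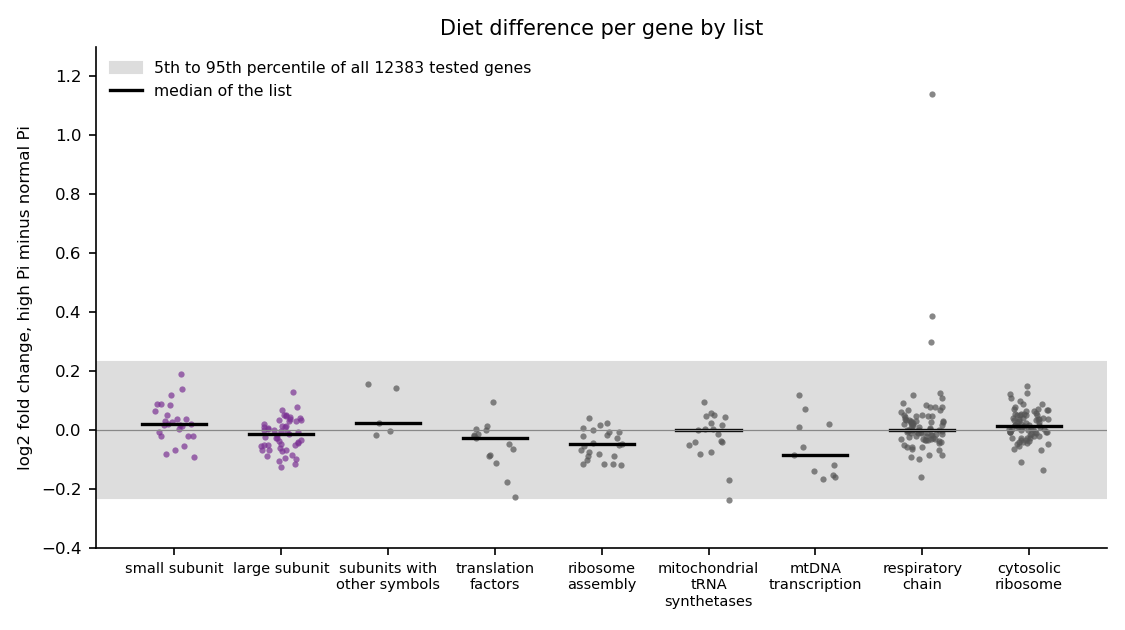
Log2 fold change of each gene (high Pi minus normal Pi) by list, with the median of each list as a bar and the 5th to 95th percentile of all 12383 tested genes (-0.231 to 0.23) shaded. Both ribosomal subunits lie within the shaded band, with medians of 0.019 and -0.013, and Cox8b at 1.14 is the highest point drawn.

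The members shared a pattern between mice of the same diet. High Pi replicate 3 held the highest value of 38 of 78 members (48.7%), although it held the highest value of only 12.4% of all tested genes. High Pi replicate 1 held the lowest value of 30 members (38.5%), and the lowest of 11.2% of all tested genes. The median member deviated from its own mean over 8 mice by -0.085, -0.025, 0.117 and 0.01 on the log2 scale in high Pi mice, and by 0.02, -0.053, 0.022 and 0.006 in normal Pi mice. The spread among high Pi mice on this scale was therefore wider than the median difference between the diets. Summed FPKM of the members were 4666, 4864, 5399 and 4985 in high Pi mice, against 4978, 4798, 5100 and 5029 in normal Pi mice, so the highest and the lowest sum were both from high Pi mice.

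The genes of the cytosolic ribosome and the respiratory chain deviated in the same direction in those mice. Their medians deviated by -0.053 and -0.074 in high Pi replicate 1 and by 0.141 and 0.151 in high Pi replicate 3. The lowest medians of both lists were those of normal Pi replicate 2, at -0.111 and -0.104, where the member median was -0.053. These deviations varied with transcript length. Across all genes with a GENCODE length, rho between deviation and length was 0.35 in high Pi replicate 1 and -0.42 in high Pi replicate 3, and between -0.11 and 0.27 in the other 6 libraries. Members are short, with a median of 1253 bases against 2512 for all tested genes. After a length trend was removed from each library, high Pi replicate 3 held the highest value of 31 members and high Pi replicate 1 the lowest of 38. The removal also took out the offset of each library. Over all tested genes the median deviation had been 0.081 in high Pi replicate 1 and -0.046 in high Pi replicate 3. The share of all tested genes was not taken after this step, and the part of length was not tested.

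**Figure D5:**
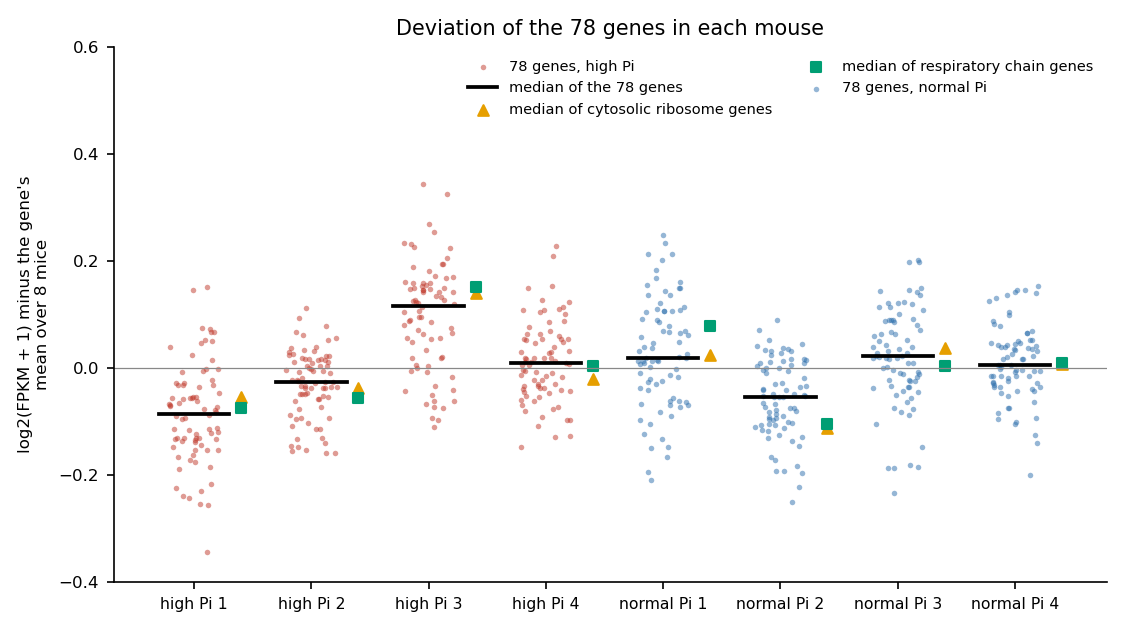
Log2(FPKM + 1) of each of the 78 members minus its mean over 8 mice, for each mouse, with the median as a bar and the medians of cytosolic ribosome (triangles) and respiratory chain genes (squares) beside it. By member median, high Pi replicate 3 lies highest (0.117) and high Pi replicate 1 lowest (-0.085), with the 4 normal Pi mice between them. The triangle and the square are lowest in normal Pi replicate 2 (-0.111 and -0.104).

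Facts of the whole series bear on these values as follows. Summed FPKM ran from 624812 to 719864 in high Pi mice and from 638963 to 672373 in normal Pi mice. Depth was not read from the files but estimated from the step between low values, at 12000000 to 12800000 fragments in high Pi mice and 11700000 to 12700000 in normal Pi mice. At this depth and with GENCODE lengths, the 39 members with a single transcript had an estimated 180.0 to 4400 fragments per library. This gave an estimated counting error of at most 7.4%. High Pi replicate 1 stood apart from its diet over all genes (root mean square log2 distance 0.299, against 0.138 to 0.212 for the other libraries). All 12 proximal tubule markers were detected, which fits the labelled tissue, with 4 of 12 log2 fold changes above 0 and none called. Hnf4a, Slc5a2, Slc34a1 and Acsm2, 4 of the 12, did not overlap between diets and were lower on high Pi, against 5.02% of all tested genes. At an unadjusted p under 0.05, 5 of the 12 were lower and 1 higher, against 9.35% of all tested genes. The sum of the 12 was 6683 to 7733 FPKM in high Pi mice and 8000 to 8513 FPKM in normal Pi mice. Without Slc34a1, the sodium-phosphate cotransporter, it was 3919 to 4720 FPKM in high Pi mice and 4366 to 4472 FPKM in normal Pi mice, where the diets overlapped. The largest part of that remainder was Slc27a2, at 1587 ± 192 FPKM in high Pi mice and 1495 ± 65.1 FPKM in normal Pi mice. Of the tested markers of other cells, 6 of 6 for endothelium and 6 of 6 for leukocytes had log2 fold changes above 0, none called. Those above 0 were 4 of 7 for thick limb and distal tubule, 1 of 9 for collecting duct, 1 of 5 for podocytes and 2 of 2 for adipocytes. Among these only Pvalb, a distal tubule marker, was called (log2 fold change 0.493, adjusted p = 0.042). It averaged 51.3 ± 3.23 FPKM in high Pi mice and 36.4 ± 4.58 FPKM in normal Pi mice (SD, n = 4 each). The endothelial markers summed to 131 to 159 FPKM in high Pi mice and 118 to 135 FPKM in normal Pi mice, and the 8 leukocyte markers to 277 to 439 FPKM in high Pi mice and 280 to 318 FPKM in normal Pi mice. Their part in the members' values was not tested, and in bulk tissue a different number of cells and a different amount of RNA per cell cannot be told apart.

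At the level of transcripts, 131 of 166 listed for the members passed the same filter, and 0 of them were called, against 0.0221% of 22595 transcripts tested. Only 2 of 131 did not overlap between diets, where 4.11% of all tested transcripts did. Both belong to Mrpl39, a mitochondrion-specific large subunit protein, and this pair was chosen after its values were seen. The transcript NM_017404.4 had 19.5, 22.7, 25.9 and 22.9 FPKM in high Pi mice, against 18.2, 19.0, 18.0 and 17.1 FPKM in normal Pi mice. The predicted transcript XM_017317024.1 had 14.1, 11.4, 10.8 and 11.1 FPKM in high Pi mice, against 17.7, 14.9, 15.2 and 16.9 FPKM in normal Pi mice. The first made up 58.7% of Mrpl39 in high Pi mice and 46.2% in normal Pi mice, and the second 30.5% in high Pi mice and 41.3% in normal Pi mice.

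Neither change passed the adjustment: log2 fold changes were 0.31 ± 0.0881 (adjusted p = 0.479) and -0.42 ± 0.1 (adjusted p = 0.329). The Mrpl39 gene total had a log2 fold change of -0.019 ± 0.072. Values of transcripts of 1 gene are estimates that divide shared reads, so the pair is not independent. Of the 39 members with more than 1 transcript, 24 had at least 90% of their level in the leading one.

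The genes lie on many chromosomes, often beside another gene that reads the other way. In the GENCODE annotation of GRCm38, 33 of 78 members (42.3%) had a protein-coding start on the opposite strand within 1000 bases of their own start, against 16.0% of 12210 tested genes. Among the 29 partners that were tested, 0 passed the adjusted threshold. Examples are Ndufs6, a subunit of respiratory complex I, which begins beside Mrpl36 and averaged 377 ± 42.0 FPKM in high Pi mice and 368 ± 21.0 FPKM in normal Pi mice, and Fau, a gene of the cytosolic ribosome beside Mrpl49, with 183 ± 11.1 FPKM in high Pi mice and 187 ± 13.9 FPKM in normal Pi mice. Of the members, 23 overlapped a coding gene on the opposite strand, and since strandedness of the counting is not given in the sources used here, reads of such pairs may not be told apart.

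A pair of these neighbours is shown because in the first both genes are members, and in the second the partner also serves mitochondrial translation. The stretches are the bases between the annotated starts (RefSeq, GRCm38.p6, plus strand), with the gene named first reading leftwards. Capitals mark GGGCGG, a GC box, in both and ATTGG, the reverse complement of the CCAAT box, in the second.
Mrpl46-Mrps11 (chr7:78783090-78783130): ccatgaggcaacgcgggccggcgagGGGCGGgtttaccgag
Mrps12-Sars2 (chr7:28741822-28741967): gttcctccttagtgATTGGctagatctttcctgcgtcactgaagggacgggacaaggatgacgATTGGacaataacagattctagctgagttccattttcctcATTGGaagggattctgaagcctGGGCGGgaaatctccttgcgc
Only 41 bases separate Mrpl46 and Mrps11 in RefSeq, whereas the longest models of GENCODE overlap at their starts by 412 bases. The 146 bases shown for Mrps12 and Sars2 hold 3 CCAAT boxes and 1 GC box. The first base of the annotated Sars2 gene is 28741957, so the right end of that stretch lies within the gene. Mrpl46 had 32.7, 36.0, 38.7 and 35.0 FPKM in high Pi mice, against 36.7, 33.3, 36.0 and 35.6 FPKM in normal Pi mice. Mrps11 had 25.3, 28.4, 31.6 and 27.0 FPKM in high Pi mice, against 31.2, 26.8, 30.6 and 31.2 FPKM in normal Pi mice. Both were highest in high Pi replicate 3 and lowest in high Pi replicate 1, and the diets overlapped in both. Mrps12, which helps set decoding accuracy, averaged 73.4 ± 6.17 FPKM in high Pi mice and 74.4 ± 3.21 FPKM in normal Pi mice. Its partner Sars2, the mitochondrial seryl-tRNA synthetase, averaged 9.5 ± 1.23 FPKM in high Pi mice and 9.77 ± 0.498 FPKM in normal Pi mice.

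The letters near the starts of the members were compared with those of other genes. Whether these letters bear on the pattern that members shared between mice was not tested. RefSeq promoter windows (GRCm38.p6, 250 bases before to 50 after the start) were matched for 69 of 78 members and searched on both strands. CCGGAAG, the core bound by ETS factors such as GABP, a known regulator of mitochondrial genes, stood in 37.7% of member windows, 19.9% of those of 9923 tested genes and 9.93% of all windows. AAGATGGC, bound by YY1, stood in 17.4% of member windows, 5.2% of tested genes and 3.19% of all windows. CGCATGCG, the core bound by NRF1, another regulator of mitochondrial genes, stood in 10.1%, 4.14% and 2.07% in the same order. GGGCGG went the other way against tested genes, at 49.3% of members, 68.0% of tested genes and 38.2% of all windows. TATAAA stood in 7.25% of member windows, 8.9% of tested genes and 15.7% of all windows, and CCAAT in 39.1%, 42.7% and 41.1%. These matches are a description of letters and not of binding. The factors themselves were not called: Gabpa averaged 7.88 ± 1.01 FPKM in high Pi mice and 8.5 ± 0.718 FPKM in normal Pi mice, Yy1 averaged 21.1 ± 2.93 FPKM in high Pi mice and 22.8 ± 0.783 FPKM in normal Pi mice, and Nrf1 averaged 3.69 ± 0.552 FPKM in high Pi mice and 3.96 ± 0.406 FPKM in normal Pi mice (SD, n = 4 each).

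Stretches of 30 bases around matches on the strand of the gene are shown to place the ETS and NRF1 letters just before the start used for each window, with the match in capitals.
Mrps22, chr9:98601672-98601701 (minus strand): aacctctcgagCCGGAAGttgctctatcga
Mrpl3, chr9:105053238-105053267 (plus strand): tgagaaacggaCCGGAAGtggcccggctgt
Mrpl34, chr8:71464878-71464907 (plus strand): aactacagctcCCGGAAGgccccgcggcaa
Mrpl27, chr11:94653725-94653754 (plus strand): gtccgcaagacCCGGAAGtagatctatccc
Mrpl9, chr3:94443298-94443327 (plus strand): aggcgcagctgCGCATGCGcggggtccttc
The first 4 show CCGGAAG beginning at positions -11, -19, -37 and -55 from the start used for the window, and Mrpl9 shows CGCATGCG at -27. For Mrpl27 and Mrpl9 that start is not the first base of the annotated gene, which is 94653770 for Mrpl27 and 94443154 for Mrpl9. The Mrpl9 match therefore lies within the annotated gene. ETS letters began within 100 bases before the start in 23.2% of members and 11.8% of tested genes.

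Of the 12 members with the YY1 letters, 4 (Mrpl32, Mrpl36, Mrps11 and Mrps12) carried them before the start, on the other strand. For Mrpl32, Mrps11 and Mrps12 these letters lie past the annotated start of the divergent neighbour (Psma2, Mrpl46 and Sars2), on its strand. They can thus belong to the neighbour. In the other 8 of the 12 members, AAGATGGC was read on the strand of the gene, each time after the start, at positions 12 to 37. In 6 of the 8 its ATG is an annotated start codon in GENCODE. Such matches after the start occurred in 11.6% of members and 2.5% of tested genes.
Mrps18a, chr17:46111004-46111033 (plus strand): aggtgcgttccAAGATGGCggccctcaggg
Mrps27, chr13:99344789-99344818 (plus strand): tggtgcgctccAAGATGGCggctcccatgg
Mrps7, chr11:115604147-115604176 (plus strand): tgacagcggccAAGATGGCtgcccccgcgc
In each stretch the capitals are the match, and its ATG is the annotated start codon. Of these genes, Mrps7 had a log2 fold change of 0.088, Mrps18a of -0.008 and Mrps27, at 21.4 ± 1.62 FPKM in high Pi mice and 21.2 ± 2.61 FPKM in normal Pi mice (SD, n = 4 each), of 0.019.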

How the data were processed

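Kidney cortex RNA of 4 high Pi and 4 normal Pi mice was extracted with an RNeasy kit and sequenced on the BGI DNBSEQ platform. The submitters' processing notes name HISAT, Bowtie2 and GRCm38.p6; versions and the counting step are not given in the sources used here. The authors deposited FPKM per gene and per transcript for each mouse, rounded to 2 decimals, so no count test was run. The design assumed either unit and named the FPKM test used.

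Members and gene lists were chosen with earlier results of these data known. FPKM were tested as log2(FPKM + 1) with limma-trend (limma 3.58.1, R 4.3.3) over the 12383 genes that reached 0.5 FPKM in 4 or more of 8 libraries. Differences are high Pi minus normal Pi, with the Benjamini-Hochberg adjustment over all tested genes and 0.05 as the threshold. The fit was tested on simulated data. In all, 23 symbols turned into dates were restored from gene IDs. The p-values measure the spread between 4 mice per diet. Counting errors cover sampling of fragments only.

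Named genes are the 6 members of smallest p in each direction, the 5 highest and 5 lowest by mean FPKM, the Mrps18 paralogs, Mrps36, the 5 subunits with other symbols, and the gene of smallest p in each further list. Other genes were named after their values were seen. Alternatives were quantile normalization, median-of-ratios scaling, TPM, a pseudocount of 0.1, no filter, the replicate number as a block, library weights, removal of a length trend, and leaving out each library.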

Additional observations from a re-analysis of the deposited data

Results flagged for a closer look

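Single mice stood far from the other 3 of their diet for 5 named genes, by Dixon's criterion for groups of 4, in 6 of 82 groups examined, where chance gives about 1 in 20. Mrps6 was at 68.2 FPKM in high Pi replicate 3, with the other 3 at 53.9 to 56.0, and at 64.6 FPKM in normal Pi replicate 1, with the others at 46.0 to 47.3. Mrps7 was at 65.9 FPKM in normal Pi replicate 1, with the others at 60.5 to 61.2. Mrpl33 was at 52.3 FPKM in high Pi replicate 3, with the others at 42.4 to 43.9. Mrpl47 was at 13.8 FPKM in high Pi replicate 1, with the others at 16.0 to 16.3. Mrps18b was at 43.4 FPKM in high Pi replicate 1, with the others at 55.5 to 56.8. High Pi replicate 1 stood apart over all genes as well, and high Pi replicate 3 and normal Pi replicate 1 were among the 3 mice with the highest summed adipocyte markers. The highest of these sums, 308 FPKM, was that of high Pi replicate 4, which held no flagged value. The part of fat, or of the distance of high Pi replicate 1, in these values was not tested.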

How the results depend on the processing

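No member passed the adjusted threshold in the 17 fits run, in which the lowest adjusted p was 0.164, while 4 to 466 of all genes did. At an unadjusted p under 0.05 the count of 0 members became 3 with library weights (Mrps7, Mrps10 and Mrps17, with 18.8% of all tested genes) and 0 to 3 as single libraries were left out. The 3 without high Pi replicate 3 were Mrpl27, Mrps24 and Mrpl33, all lower (7.59% of all tested genes), the 2 without high Pi replicate 1 were Mrps10 and Mrps17 (18.8%), and the 1 without normal Pi replicate 1 was Mrps6 (8.83%). Members with no overlap became 3 with TPM (4.13% of all tested genes), 1 with the length trend removed (6.7%), and 0 to 6 as libraries were left out (6 without high Pi replicate 3, with 7.21%, and 4 without high Pi replicate 1, with 17.3%). The median over members ranged from -0.042 to 0.024 in the fits without a library. The cause was not tested.

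Signs turned in 12 of 36 named genes, none called in any fit. Under TPM, log2 fold changes were -0.021 for Mrps21, -0.017 for Mrpl34, -0.035 for Mrpl54, -0.007 for Mrps18c, -0.034 for Mrps36 and -0.012 for Aurkaip1. Under quantile normalization they were -0.009 for Mrpl54, 0.002 for Mrps25, -0.022 for Mrps36 and 0.012 for Ptcd3. Under library weights they were -0.041 for Mrpl54, 0.005 for Mrps18a, -0.017 for Mrps36 and 0.01 for Ptcd3. With the length trend removed they were -0.004 for Mrpl54, 0.019 for Mrps25 and -0.003 for Mrps36. With median-of-ratios scaling they were 0.001 for Mrps18a and 0.003 for Ptcd3. Leaving out single libraries gave -0.046 to 0.063 for Mrps21, -0.035 to 0.071 for Mrpl34, -0.053 to 0.047 for Mrpl54, -0.003 to 0.126 for Mrpl1, -0.076 to 0.027 for Mrps25, -0.068 to 0.005 for Mrpl19, -0.057 to 0.042 for Mrps18a, -0.05 to 0.113 for Mrps18c, -0.046 to 0.04 for Mrps36, -0.051 to 0.049 for Ptcd3, -0.041 to 0.075 for Aurkaip1 and -0.087 to 0.027 for Gadd45gip1.

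The labels do not say whether shared replicate numbers pair the mice. Deviations of same-numbered libraries correlated at -0.209, -0.0112, 0.061 and -0.121, which cannot show whether those mice shared handling. With the replicate number as a block, 0 members and 11 genes in all were called, and the member median stayed at 0.001. With 4 mice per diet at this depth, changes that lie within the interval of a member are not excluded.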
